A study of Mus musculus and Acomys cahirinus with 2 samples.

Results

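Chemokines are small secreted or membrane-anchored proteins that steer leukocytes by binding receptors on their surface, and in skin the keratinocytes and hair follicles are themselves a source of them. The 9 chemokine genes described here are Ccl2, Ccl6, Ccl7, Ccl8, Ccl20, Cxcl12, Cxcl14, Cxcl16 and Cx3cl1, taken as every row of both gene lists whose symbol equals a member. Each symbol matched 1 row in each list, so these are 9 of the 15709 symbols that both libraries share. The members were chosen with the difference between the libraries already known, so that difference is given below as a description.

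The study profiled single cells of ear skin from adult animals at day 0 in 2 species, the spiny mouse Acomys cahirinus (1 library) and the laboratory mouse Mus musculus (1 library). The series title calls both tissues injured. Strain, genotype, sex, the form of the injury and the number of animals behind each library are not stated in the labels or files used. With 1 library per species no difference can be tested, and species, animal and library preparation cannot be told apart. All intervals printed are exact at 95%; they allow for counting error and for nothing else. Where no UMI was found, the limit given is instead that of 3 counts, and a ratio also carries its exact limit. A limit on a share is on cells with a UMI, not on cells that express the gene.

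The Acomys library gave 4603 cells with a median of 7519 UMIs (unique molecular identifiers, each a counted RNA molecule), and the Mus library gave 6556 cells with a median of 11778. Cells were clustered without any chemokine or chemokine receptor gene, so the clusters did not use the members. Named from fixed markers, the clusters gave 1662 Acomys and 3274 Mus basal keratinocyte-like cells, 971 and 1518 suprabasal keratinocyte-like cells, 638 and 402 hair follicle and appendage-like cells, and 326 and 222 sebocyte-like cells. Unnamed clusters held 19.0% of the Acomys cells and 15.9% of the Mus cells, and 32 cell barcodes occurred in both libraries. A level is the summed UMI count of a class as counts per 1000000 UMIs on shared symbols (CPM). The names are rebuilt here and may differ from those of the study.

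The members fall into 4 groups by role and kinship. Ccl2 and Ccl7 are monocyte-attracting ligands of Ccr2 and related receptors, and Ccl8 is a close relative. In the mouse genome (GRCm38) Ccl2, Ccl7 and Ccl8 lie near each other on chromosome 11, at 82035571-82037453, 82045712-82047525 and 82115185-82116799. Ccl6, at 83587882-83593087 on the same chromosome, is a rodent ligand made mainly by myeloid cells. Ccl20, on chromosome 1 at 83116766-83119167, is the ligand of Ccr6 and draws dendritic cells and interleukin-17-producing T cells. In mouse skin the follicle openings are known sites of Ccl20 and other parts of the follicle are known sites of Ccl2 and Ccl8, where these ligands act on precursors of Langerhans cells.

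Cxcl12 (chromosome 6, 117168535-117181367) binds Cxcr4 and is a product of stroma and endothelium, while Cxcl14 (chromosome 13, 56288643-56296551) is made at rest by many epithelia. Cxcl16 (chromosome 11, 70453983-70459984) and Cx3cl1 (chromosome 8, 94772009-94782427) are made as membrane-anchored proteins that adhesion or shedding by Adam10 and Adam17 puts to use. Ccl2, Ccl7 and Ccl8 are close relatives in sequence, and no label or file used states how reads that fit more than 1 of them were counted.

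Mouse promoter sequences were at hand for 6 of the 9 members, from RefSeq (GRCm38.p6). The 2 shown belong to the members with the highest basal level in each library, Ccl20 in Acomys and Cxcl14 in Mus, each from 250 bases before to 50 bases after the start of the gene and 5′ to 3′ on the strand of the gene. Capitals mark matches on either strand to a simple pattern of the NF-kappaB site (3 bases G, any 5 bases and 2 bases C), a factor known to drive Ccl20. The Ccl20 window (chr1:83116516-83116815, plus strand) holds 3 overlapping matches between -82 and -71, and the Cxcl14 window (chr13:56296502-56296801, minus strand) holds none. Of all 32851 mouse promoter windows of that length, 50.8% hold at least 1 match, and neither window holds the AP-1 pattern TGANTCA, which 7.81% hold. No Acomys promoter was used here.
Ccl20: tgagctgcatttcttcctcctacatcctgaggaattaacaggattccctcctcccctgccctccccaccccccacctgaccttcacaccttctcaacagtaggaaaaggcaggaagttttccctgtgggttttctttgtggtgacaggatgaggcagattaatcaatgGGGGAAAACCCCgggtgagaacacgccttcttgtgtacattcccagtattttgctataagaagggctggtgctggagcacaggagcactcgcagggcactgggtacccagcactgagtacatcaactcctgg
Cxcl14: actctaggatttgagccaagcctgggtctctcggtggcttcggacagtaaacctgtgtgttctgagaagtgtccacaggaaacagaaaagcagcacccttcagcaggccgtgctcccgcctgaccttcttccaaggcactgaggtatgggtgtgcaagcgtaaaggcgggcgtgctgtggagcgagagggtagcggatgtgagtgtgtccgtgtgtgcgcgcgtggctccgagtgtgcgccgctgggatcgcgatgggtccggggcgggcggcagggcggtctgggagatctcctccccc

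Within the Acomys library Ccl20 had the highest UMI level of the members in follicle and basal cells, while in suprabasal cells it did not differ from Cxcl16 beyond the intervals. The counts are of RNA 3′ ends, so levels of different genes were not divided by gene length. The Ccl20 level was 642 CPM (614 to 672) in follicle cells, 101.4 CPM (94.5 to 109) in suprabasal cells and 98.6 CPM (84.6 to 114) in sebocyte-like cells, against 331 CPM (319 to 343) in basal cells. Blood endothelium-like cells had 38.8 CPM (16.8 to 76.4). Follicle cells were therefore the highest class, and the suprabasal and sebocyte-like levels did not differ beyond their intervals. With a cell minimum of 1000 UMIs these 2 levels did differ, at 115.4 CPM (109 to 122) in suprabasal and 159 CPM (142 to 178) in sebocyte-like cells.

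At least 1 Ccl20 UMI was found in 32.8% of Acomys follicle cells (29.1 to 36.5%), 25.2% of suprabasal cells (22.5 to 28.1%) and 25.8% of sebocyte-like cells (21.1 to 30.9%), against 36.8% of basal cells (34.4 to 39.1%). After each cell was thinned to 2500 UMIs the shares were 21.0% of follicle cells, 10.2% of suprabasal cells and 10.7% of sebocyte-like cells, against 21.7% of basal cells. In endothelium-like cells, where the gene would not be looked for, the share was 8.33% of 84 cells at a median of 3381 UMIs, against a median of 7933 UMIs in basal cells. The share thus separated basal and follicle cells less than the level did.

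The Ccl20 RNA of Acomys was concentrated in few cells. Of 638 follicle cells, 80 carried at least 5 UMIs and held 88.8% of the Ccl20 UMIs, and of 1662 basal cells 162 held 74.3%. The highest follicle cell had 393 UMIs and the highest basal cell 244. Without these cells the follicle level was 510 CPM and the basal level 304 CPM, so the order of the classes did not rest on them. Cxcl16 showed the opposite form, with 11.3% of its basal UMIs in the 28 cells that had 5 or more.

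**Figure D1:**
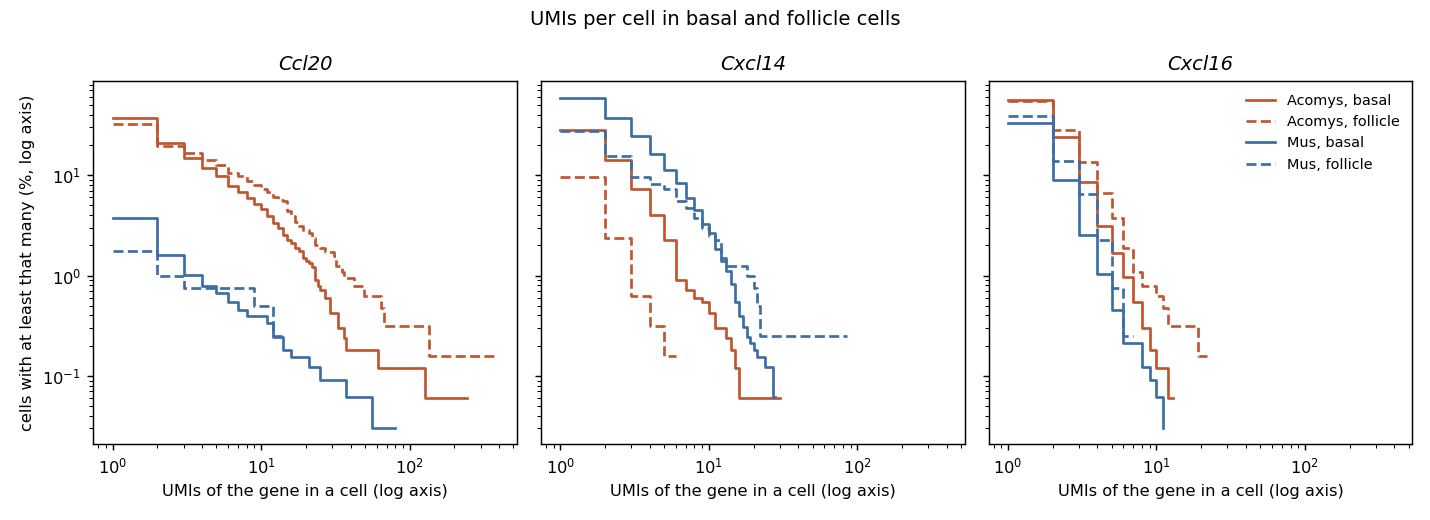
Share of follicle (dashed) and basal (solid) cells that carry at least a given number of UMIs of Ccl20, Cxcl14 or Cxcl16, in Acomys and in Mus; both axes are logarithmic. Ccl20 has a long tail that reaches 393 UMIs in an Acomys follicle cell, whereas no Cxcl16 curve passes 22 UMIs.

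Clusters showed where in the Acomys epithelium Ccl20 lay. Cluster 6, 309 follicle cells led by Krt79, a keratin of the upper follicle, had 1053 CPM, and 833 CPM without its highest cell. The other 3 follicle clusters had 45.5, 38.1 and 13.3 CPM. The follicle level was thus that of the Krt79 cluster. The basal cells were split in a similar way, between cluster 9 (223 cells led by Defb1, with Ccl7 and Ccl20 among its 10 leading genes) with 588 CPM, cluster 1 (706 cells, led among named genes by Cyp1a1 and Fst) with 513 CPM, cluster 2 (467 cells led by Serpinb10) with 154 CPM and 3 cycling clusters with 77.6 to 112 CPM.

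Ccl20 and Cxcl14 ran in opposite directions between the 2 largest Acomys basal clusters. Cxcl14 had 14.2 CPM in cluster 1 and 229 CPM in cluster 2, where Ccl20 had 513 and 154 CPM. Cluster 9 was high in both, with 156 CPM of Cxcl14, and also had the highest Ccl7 level of any Acomys cluster, 165 CPM. Over basal cells taken singly, 161 cells carried both Ccl20 and Cxcl14, against 173 that the product of the 2 shares gives.

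The monocyte-attracting ligands were found in Acomys keratinocytes at lower levels. Ccl7 had 23.0 CPM (19.8 to 26.6) in suprabasal cells, 3.08 CPM (1.41 to 5.84) in follicle cells and 2.22 CPM (0.604 to 5.67) in sebocyte-like cells, against 57.9 CPM (53.0 to 63.1) in basal cells. After thinning, at least 1 Ccl7 UMI was found in 0.627% of follicle cells and 2.37% of suprabasal cells, against 6.92% of basal cells. Endothelium-like cells gave 3.57% of 84 cells (0.743 to 10.1%), which the follicle and suprabasal shares did not exceed. The endothelium-like level was 19.4 CPM (5.29 to 49.7), which overlaps the suprabasal one. At a cell minimum of 1000 UMIs it was 43.7 CPM (28.3 to 64.5), beside 50.2 CPM (46.0 to 54.7) in basal cells. Endothelium-like cells were therefore no blank for Ccl7. Among the epithelial classes Ccl7 was thus highest in basal cells, and the follicle cells held 9 UMIs in all.

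Ccl2 had 12.2 CPM (9.89 to 14.9) in suprabasal cells, 21.6 CPM (16.6 to 27.6) in follicle cells and 12.2 CPM (7.64 to 18.4) in sebocyte-like cells, against 28.5 CPM (25.1 to 32.2) in basal cells. These levels rested on few cells: 1 follicle cell held 28 of 63 UMIs, 1 sebocyte-like cell held 18 of 22, and 1 basal cell held 81 of 254. Without those cells the levels were 12.02 CPM in follicle and 2.23 CPM in sebocyte-like cells, against 19.4 CPM in basal cells. The suprabasal level, 11.5 CPM without its highest cell, was spread over 58 cells, 5.97% of the class at a median of 11348 UMIs. After thinning the suprabasal share was 1.96% (1.18 to 3.04%), and 0 of 84 endothelium-like cells had a Ccl2 UMI, which allows up to 3.57%, so the shares could not be told apart at this depth.

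Ccl2 and Ccl7 were found in the same Acomys cells more often than the product of their shares. Of 74 basal cells with a Ccl2 UMI, 35.1% also had Ccl7, against 13.4% of the basal cells without Ccl2, and 26 cells had both where the product gives 10.6. In suprabasal cells 16 had both where the product gives 4.78. Cells with more UMIs in all carry more of any gene, and this count is a description without a test.

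Ccl8 was nearly absent from the Acomys epithelium, with 65 UMIs in suprabasal cells (8.17 CPM), of which a single cell held 28, against 9 UMIs in basal cells (1.01 CPM). Ccl6 had 3 UMIs in suprabasal cells and 4 in basal cells. For Cxcl12, 0 of 638 follicle cells had any UMI, which allows a share of up to 0.470%, against 4 UMIs in basal cells, whereas blood endothelium-like cells had 97.0 CPM (59.2 to 150). Ccl6, Ccl8 and Cxcl12 thus stayed under 10 CPM in every named epithelial class of Acomys.

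Cxcl14 and Cxcl16 were broad. Cxcl14 had 38.0 CPM (33.8 to 42.5) in suprabasal cells, 28.7 CPM (22.9 to 35.6) in follicle cells and 14.95 CPM (9.85 to 21.8) in sebocyte-like cells, against 114 CPM (107 to 121) in basal cells. Its highest Acomys clusters were unnamed, cluster 5 (led by Aspn, 372 CPM) and cluster 8 (led by Smim1, 337 CPM). Cxcl16 had 99.1 CPM (92.3 to 106) in suprabasal cells, 251 CPM (233 to 270) in follicle cells and 194 CPM (175 to 216) in sebocyte-like cells, against 178 CPM (169 to 187) in basal cells. It was also present in endothelium-like cells (247 CPM) and in the 28 T cell-like cells (729 CPM, or 396 CPM without the highest cell), so that in this library it marked no epithelial layer.

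Between suprabasal and basal cells Cx3cl1 ran opposite to Ccl20. Its Acomys level was 18.1 CPM (15.3 to 21.3) in suprabasal cells, 10.3 CPM (6.92 to 14.7) in follicle cells and 1.66 CPM (0.343 to 4.86) in sebocyte-like cells, against 6.06 CPM (4.55 to 7.91) in basal cells. No cell had more than 3 UMIs. The share of suprabasal cells with a UMI was 13.7%, or 3.50% after thinning (2.44 to 4.86%), against 1.08% of basal cells after thinning (0.643 to 1.71%).

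**Figure D2:**
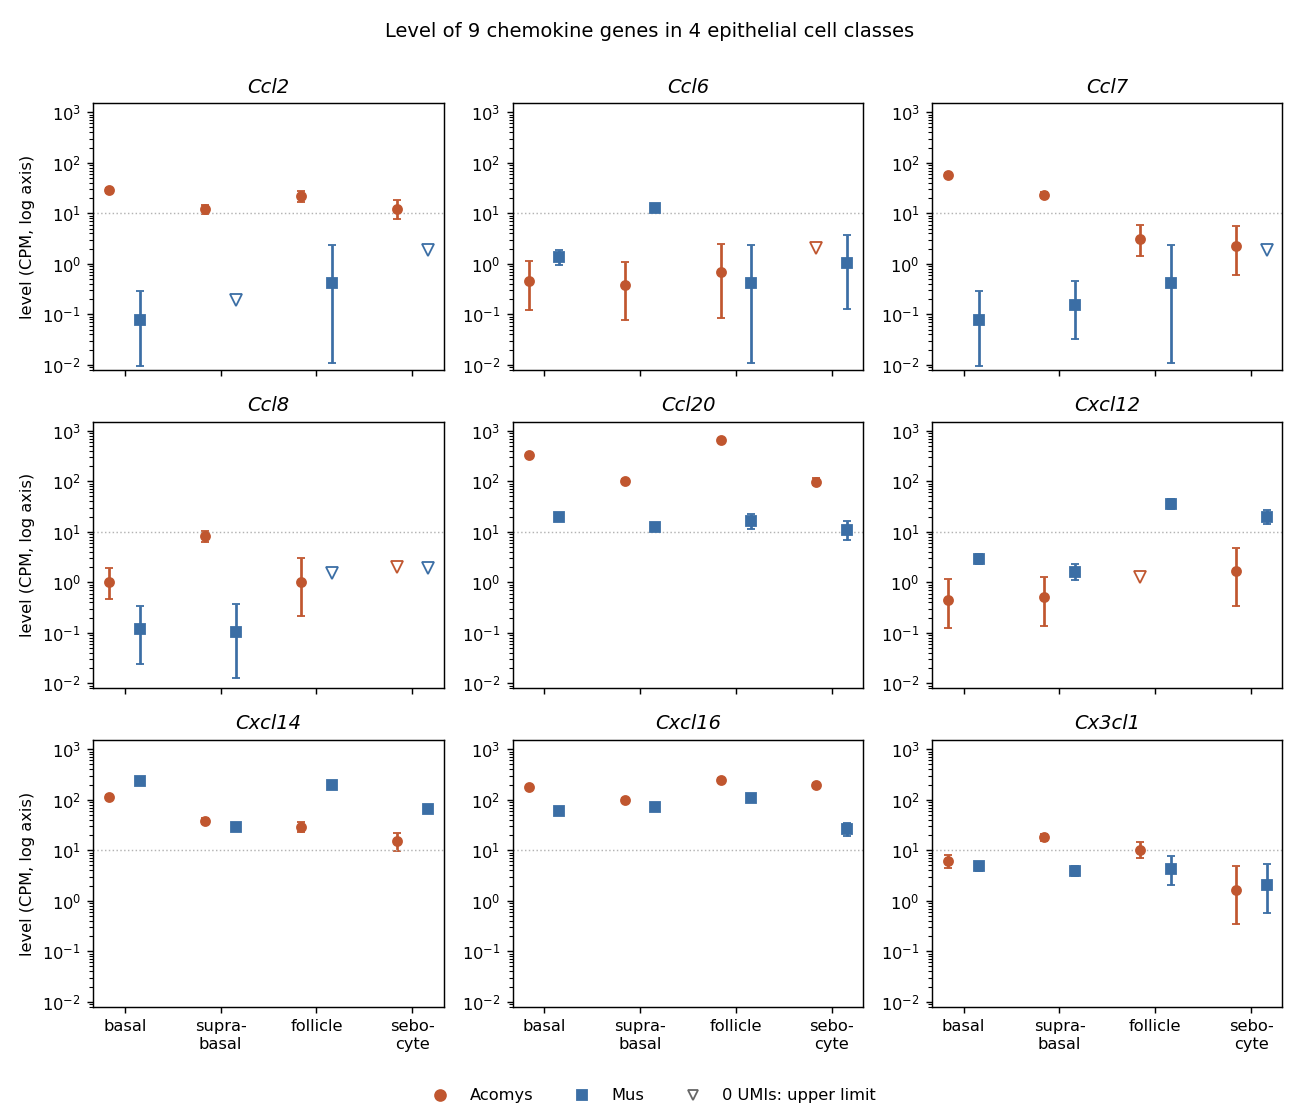
Level of each chemokine gene (CPM, log axis) in 4 epithelial classes, Acomys (circles) left of Mus (squares); bars are exact 95% Poisson intervals, open triangles the upper limit where no UMI was found, and the dotted line is 10 CPM. Ccl20 falls between 98.6 and 642 CPM in Acomys and between 10.9 and 20 CPM in Mus, and Ccl2 and Ccl7 had 3 UMIs or fewer in every Mus class shown.

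Counted by a fold of at least 2 and at least 10 CPM in the higher class, 6 members could be compared between suprabasal and basal cells of Acomys. Ccl2, Ccl7, Ccl20 and Cxcl14 were lower in suprabasal cells, at 0.428 (0.335 to 0.543), 0.398 (0.334 to 0.471), 0.307 (0.283 to 0.332) and 0.333 (0.292 to 0.379) times the basal level, and Cx3cl1 was 2.99-fold higher (2.17 to 4.17). Over all symbols 19.8% were lower by this rule and 5.49% higher. Cxcl16, at 0.558 times the basal level (0.511 to 0.608), was not counted. The median log2 ratio of the 6 was -1.28, beside -0.41 over all 5615 symbols compared. The Ccl2 call rested on the basal cell with 81 UMIs: without the cell of each class that had most Ccl2 the log2 ratio was -0.76, against -1.22 with them. The basal and suprabasal levels were 9.21% and 3.94% of the Ccl2 level in free RNA, taken from barcodes of 1 to 10 UMIs. With 10% of free RNA subtracted no Ccl2 was left in either class, so that setting gave no ratio to read. The 10% was a set share, not a measured one. With a cell minimum of 1000 UMIs the log2 ratio of Cx3cl1 was 0.91, under 2-fold, against 1.58.

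Between sebocyte-like and basal cells of Acomys, 4 of 5 members were lower (Ccl2, Ccl7, Ccl20 and Cxcl14), where 12.3% of all symbols were, and none was higher, where 5.77% were. With a cell minimum of 1000 UMIs Ccl20 had 159 CPM in sebocyte-like and 279.5 CPM in basal cells, which is under 2-fold. Cxcl16 did not differ beyond its interval, at 1.09 times the basal level (0.971 to 1.23). Between follicle and basal cells 2 of 6 were lower, where 7.35% of all symbols were, namely Ccl7 at 0.0532 (0.0242 to 0.102) and Cxcl14 at 0.252 (0.199 to 0.315) times the basal level. None was counted as higher, where 6.31% were; Ccl20 came nearest, at 1.94 times the basal level (1.83 to 2.06).

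Within the Mus library Cxcl14 had the highest UMI level of the members in basal and follicle cells. In follicle cells this depended on the cell minimum: at 1000 UMIs Cxcl14 had 62.7 CPM there and Cxcl16 had 132 CPM. At the main minimum Cxcl14 had 28.4 CPM (26.1 to 30.9) in suprabasal cells, 198 CPM (181 to 217) in follicle cells and 65.6 CPM (54.7 to 78.1) in sebocyte-like cells, against 235 CPM (229 to 241) in basal cells. A UMI was found in 26.3% of suprabasal cells, against 59.4% of basal cells, and after thinning in 4.94% of suprabasal cells, against 25.3% of basal cells. Endothelium-like cells gave 11.9% of 42 cells after thinning, at a median of 5544 UMIs, so the suprabasal share was no higher than in a cell type where the gene would not be looked for.

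Cluster 12 of Mus, 141 follicle cells whose leading genes include Lgr5 and Lhx2, genes of follicle stem cells, had the highest Cxcl14 level of any cluster, 552 CPM, or 431 CPM without the cell that held 85 UMIs. The other 3 follicle clusters had 138, 46.7 and 23.1 CPM. The lowest of them, cluster 17, has Krt79 among its leading genes, and the Krt79 cluster of Acomys was likewise low, at 13.2 CPM.

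Cxcl16 was again broad in Mus, with 71.1 CPM (67.4 to 75.0) in suprabasal cells, 107 CPM (94.1 to 121) in follicle cells and 26.0 CPM (19.3 to 34.3) in sebocyte-like cells, against 60.7 CPM (57.8 to 63.9) in basal cells. Its highest named epithelial clusters were the Krt79 cluster 17 (180 CPM) and the late suprabasal cluster 15 (147 CPM). Mature sebocyte-like cells of cluster 16, led by Cidea, had 9.47 CPM.

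Ccl20 was low throughout the Mus epithelium, with 12.4 CPM (10.9 to 14.0) in suprabasal cells, 16.04 CPM (11.4 to 22.0) in follicle cells and 10.9 CPM (6.77 to 16.7) in sebocyte-like cells, against 20 CPM (18.3 to 21.8) in basal cells. It was found in 3.73% of basal cells (3.104 to 4.43%), or 1.16% after thinning, beside 0 of 42 endothelium-like cells after thinning. The same concentration held as in Acomys: 22 of 3274 basal cells had at least 5 UMIs and held 71.3% of the basal UMIs, up to 80 in a cell. In the Krt79 cluster 17 the level was 54.4 CPM, with all 33 UMIs in 3 cells of 89, and in the early suprabasal cluster 7 it was 53.2 CPM, with 93.4% of 198 UMIs in 8 cells of 322.

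Ccl6 was higher in suprabasal than in basal cells of Mus. It had 12.5 CPM (10.9 to 14.2) in suprabasal cells, 0.422 CPM in follicle cells and 1.04 CPM in sebocyte-like cells, against 1.34 CPM (0.931 to 1.88) in basal cells. Of its 241 suprabasal UMIs, 222 lay in cluster 15, 125 cells led by Hrnr and other late differentiation genes, at 122 CPM and in 46.4% of the cells. The Ccl6 level of Mus suprabasal cells was thus that of the late cluster.

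The 17 suprabasal Mus cells with at least 5 Ccl6 UMIs also had more of 1 macrophage marker and of the Langerhans cell markers. The summed level of the 10 macrophage markers with a symbol was 142 CPM in these cells, against 9.07 CPM in suprabasal cells without a Ccl6 UMI. Of that sum 139 CPM was Cd68, a lysosomal protein, and 2 of the 10 markers were detected in these cells. The 7 Langerhans cell markers with a symbol summed to 1498 CPM in these cells, against 322 CPM in suprabasal cells without a Ccl6 UMI, with 1 UMI of Cd207, the defining marker, in the 17 cells. Such a sum was not particular to them. It was 1196 CPM in Mus follicle cells without a Cxcl14 UMI. In Acomys follicle cells without a Ccl20 UMI it was 1307 CPM, with 0 UMIs of Cd207. The sum was not split by marker. The part of myeloid RNA in the Ccl6 level was not tested. Outside the epithelium Ccl6 had 146 CPM in the 20 cells of unnamed cluster 23, led by Cd74 and H2-Aa, where 15 of 19 UMIs lay in 1 cell.

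Cxcl12 in Mus was a gene of the follicle and sebaceous clusters rather than the interfollicular layers. It had 35.5 CPM (28.3 to 43.9) in follicle cells, 19.8 CPM (14.0 to 27.2) in sebocyte-like cells and 1.60 CPM in suprabasal cells, against 2.93 CPM (2.30 to 3.67) in basal cells. Apart from stromal and endothelial cells, the highest clusters were unnamed cluster 5, led by Sostdc1 (74.8 CPM), and follicle cluster 14, led by Nebl (66.5 CPM). Fibroblast-like cells had 143 CPM (106 to 189) and endothelium-like cells 202 CPM (139 to 284); with a cell minimum of 1000 UMIs these levels were 847 and 206 CPM.

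Of the remaining members, Ccl2, Ccl7 and Ccl8 were near the detection limit in the Mus epithelium, and Cx3cl1 was low but detected. Ccl2 had 0 UMIs in 1518 suprabasal cells, which allows up to 0.198% of them, and 2 UMIs in 3274 basal cells. Ccl7 had 3 UMIs in suprabasal cells and 2 in basal cells, and Ccl8 had 2 UMIs in suprabasal cells and 3 in basal cells. Ccl8 had 0 UMIs in 402 follicle cells, which allows up to 0.746% of them, and was found in fibroblast-like cells at 35.0 CPM (18.1 to 61.1). Cx3cl1 lay between 2.08 and 4.78 CPM in the 4 classes, with 121 UMIs in basal cells. None of Ccl2, Ccl7, Ccl8 and Cx3cl1 reached 10 CPM in a Mus epithelial class.

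By the rule of 2-fold and 10 CPM, 4 members could be compared between suprabasal and basal cells of Mus. Cxcl14 was lower, at 0.121 times the basal level (0.111 to 0.132), where 19.3% of all symbols were lower, and Ccl6 was 9.28-fold higher (6.46 to 13.7), where 7.60% were higher. The Ccl6 call was lost with a cell minimum of 500 UMIs, with 10% of free RNA subtracted and with CPM over all genes. Between follicle and basal cells Cxcl12 was 12.1-fold higher (8.77 to 16.8), where 8.48% were higher, and no member was lower, where 4.70% were. With a cell minimum of 1000 UMIs Cxcl14 had 62.7 CPM in follicle and 247.5 CPM in basal cells, which is lower by this rule. Ccl20 then had 36.95 CPM in follicle and 17.3 CPM in basal cells, and Cxcl16 had 132 and 58.7 CPM, both of which are higher by it. Between sebocyte-like and basal cells Cxcl12 was 6.77-fold higher (4.45 to 10.1), where 10.7% were higher. Cxcl14 and Cxcl16 were lower there, at 0.279 (0.232 to 0.333) and 0.429 (0.317 to 0.568), where 13.0% were lower. With a cell minimum of 1000 UMIs Ccl20 was lower as well, with 3.20 CPM in sebocyte-like and 17.3 CPM in basal cells.

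**Figure D3:**
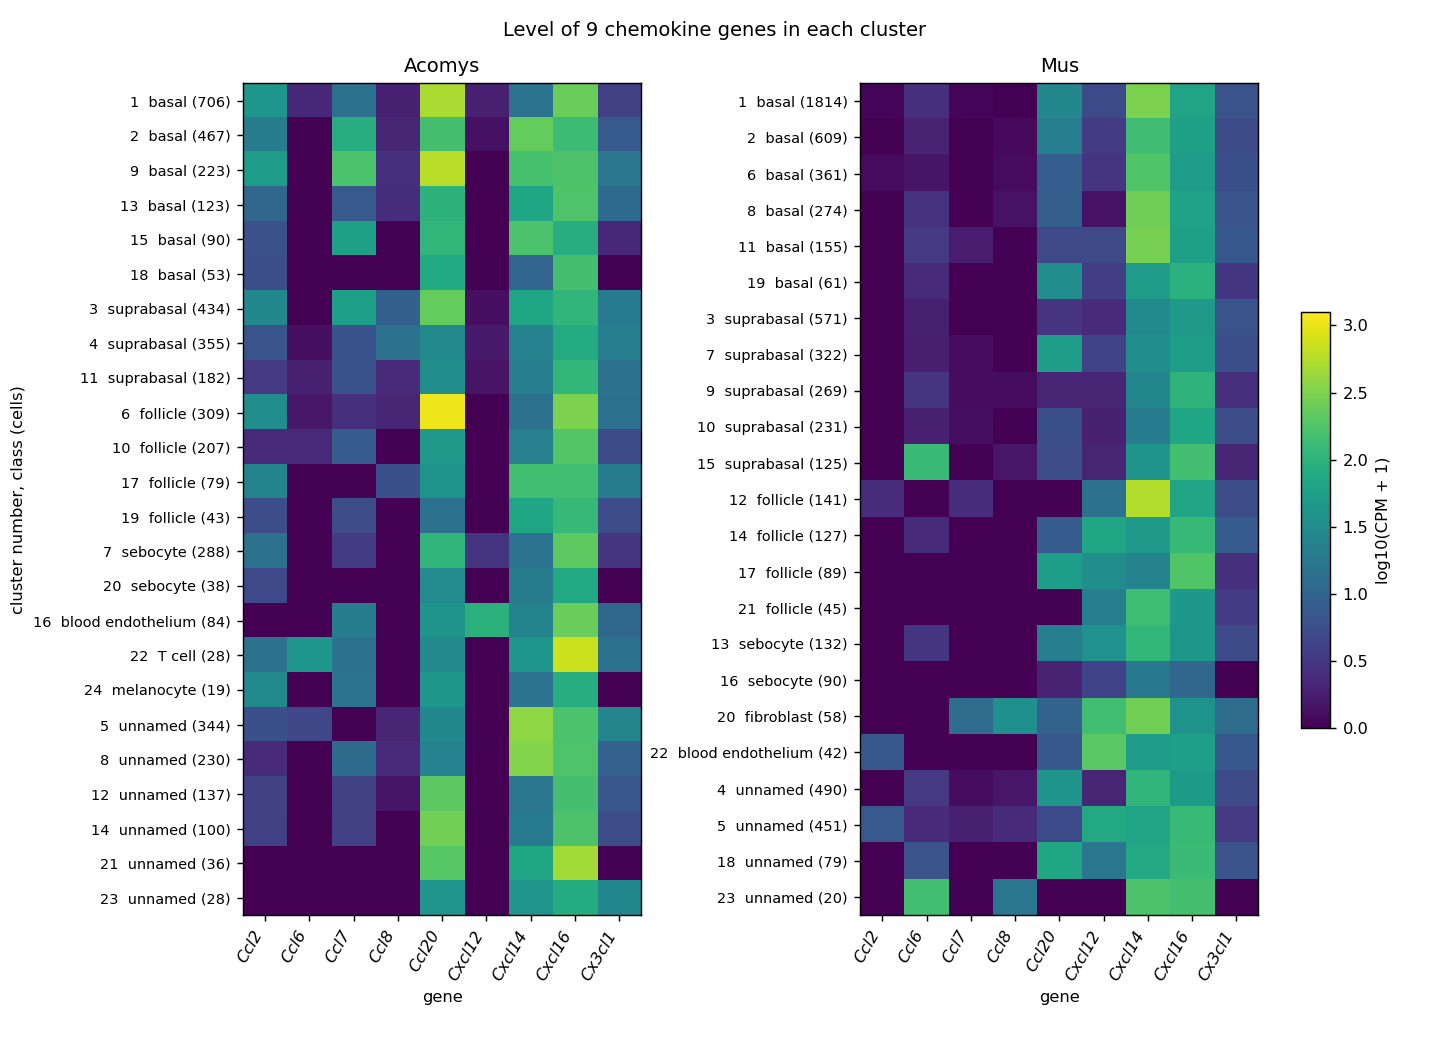
Level of each chemokine gene, as log10(CPM + 1), in every cluster of the Acomys (left) and Mus (right) library, with the class and the number of cells. Ccl20 is brightest in Acomys follicle cluster 6 (1053 CPM), Cxcl14 in Mus follicle cluster 12 (552 CPM), and Ccl6 in Mus suprabasal cluster 15 (122 CPM) and unnamed cluster 23 (146 CPM).

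Set side by side, Ccl20 was higher in Acomys than in Mus in all 4 epithelial classes, Ccl2 likewise, though in sebocyte-like cells on 1 cell, and Ccl7 in basal and suprabasal cells. With 10% of free RNA subtracted, a set share, no Ccl2 was left in any of the 4 classes of either library, so no Ccl2 call was kept. In barcodes of 1 to 10 UMIs Ccl2 had 310 CPM in Acomys and 8.59 CPM in Mus. The part of free RNA in the Ccl2 ratios was not tested. Ccl8 stayed under 10 CPM in every epithelial class of both libraries. In basal cells Ccl20 was 16.5-fold higher in Acomys (15.04 to 18.2), Ccl2 361-fold (98.8 to 2994) and Ccl7 733-fold (202 to 6065), the last 2 against 2 Mus UMIs each, and Cxcl16 was 2.93-fold higher (2.73 to 3.14). Cxcl14 was at 0.486 times the Mus level (0.454 to 0.519). Thus 4 of 5 members compared were higher in Acomys, where 14.8% of all symbols were, and 1 was lower, where 37.3% were. The median log2 ratio over all 7618 symbols compared was -0.39. The members were chosen on this contrast, and nothing is read from these counts. The Cxcl14 ratio lay at the 2-fold limit, and its log2 value of -1.04 was -0.68 with unnamed clusters counted in the class they most resembled.

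In suprabasal cells Ccl20 was 8.20-fold higher in Acomys (7.09 to 9.51), Ccl7 148-fold (49.95 to 726) and Cx3cl1 4.67-fold (3.51 to 6.26). Ccl2 was 78.6-fold higher against a floor of 3 UMIs over the Mus class, with an exact lower limit of 62.7-fold. Ccl6 was at 0.0303 times the Mus level (0.00620 to 0.0895), on 3 Acomys UMIs; its log2 ratio was -5.05, or -6.55 without the highest cells. Cxcl14 and Cxcl16, at 1.34 (1.16 to 1.54) and 1.39 (1.28 to 1.52), stayed under 2-fold. That is 4 of 7 higher, where 15.1% of all symbols were, and 1 lower, where 38.4% were.

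In follicle cells Ccl20 was 40.0-fold higher in Acomys (29.1 to 56.8), Ccl2 51.0-fold (8.83 to 2048, against 1 Mus UMI), Cxcl16 2.35-fold (2.04 to 2.72) and Cx3cl1 2.43-fold (1.16 to 5.57). Cxcl14 was at 0.145 times the Mus level (0.113 to 0.183). Cxcl12, with no Acomys UMI, was 34.6-fold lower at a floor of 3 UMIs, with an exact limit of 27.5-fold. With a cell minimum of 1000 UMIs the gap in Cxcl14 was smaller, with 29.5 CPM in Acomys and 62.7 CPM in Mus follicle cells. The gap in Ccl20 was smaller too, with 518 CPM in Acomys and 36.95 CPM in Mus follicle cells. With 10% of free RNA subtracted, a set and not a measured share, no Ccl2 was left in the follicle cells of either library. Those are 4 of 6 higher, or 3 of 5 without the highest cells, where 13.3% of all symbols were, and 2 lower, where 40.5% were. The follicle classes of the libraries were made up of different clusters: the Krt79 cluster was 309 of 638 cells in Acomys and 89 of 402 in Mus, and the Lgr5 cluster of Mus had no named counterpart. The unnamed Acomys cluster 5, whose leading genes also include Lhx2, had 372 CPM of Cxcl14 and lies outside the follicle class. Between the Krt79 clusters themselves Ccl20 had 1053 CPM in Acomys and 54.4 CPM in Mus.

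In sebocyte-like cells Ccl20 was 9.02-fold higher in Acomys (5.72 to 14.9) and Cxcl16 7.47-fold (5.54 to 10.3). Ccl2 was 7.80-fold higher against a floor of 3 Mus UMIs, with an exact lower limit of 5.83-fold. Of its 22 Acomys UMIs 18 lay in 1 cell, and without that cell its Acomys level of 2.23 CPM was under the 10 CPM minimum. Without the highest cell of each library the log2 ratio of Ccl20 was 4.05, against 3.17 with them. With a cell minimum of 1000 UMIs the Ccl20 gap was wider, with 159 CPM in Acomys and 3.20 CPM (6 UMIs) in Mus sebocyte-like cells. The order of the 4 classes by the fold of Ccl20 thus depended on the cell minimum. Cxcl12 and Cxcl14 were at 0.0840 (0.0166 to 0.265) and 0.228 (0.145 to 0.348) times the Mus level. That is 3 of 5 higher, or 2 of 4 without the highest cells, where 13.4% of all symbols were, and 2 lower, where 42.0% were. Ccl20 was thus higher in Acomys in all 4 classes, and Cxcl14 was lower in basal, follicle and sebocyte-like cells but not in suprabasal cells. The genome and gene models behind each gene list also differ between the species, and their part in these ratios cannot be told apart from the level of RNA. Whether a symbol marks the orthologous gene in the Acomys list was not checked, which bears most on close relatives such as Ccl2, Ccl7 and Ccl8.

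Many UMIs of Ccl2, Ccl6, Ccl7 and Ccl8 lay outside the cells. In Acomys 20.3% of all Ccl2 UMIs, 1.25% of Ccl6, 39.5% of Ccl7 and 4.37% of Ccl8 were in cells, against 55.1% of all UMIs on shared symbols and 58.5% of Ccl20. In Mus 6.92%, 23.3%, 4.92% and 31.2% of the same 4 genes were in cells, against 69.5% of all UMIs and 62.5% of Ccl20. In barcodes of 11 to 100 UMIs, well below the cell minimum, Acomys levels were 878 CPM for Ccl2, 1550 CPM for Ccl6, 337 CPM for Ccl7 and 692 CPM for Ccl8, and Mus levels were 37.8, 686, 54.6 and 8.39 CPM.

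Macrophage and neutrophil markers were also highest in the barcodes of 11 to 100 UMIs. The 10 macrophage markers summed to 2757 CPM in Acomys barcodes of 11 to 100 UMIs and 17.4 CPM in Acomys cells, and to 5319 CPM and 19.3 CPM in Mus. The 3 neutrophil markers with a symbol summed to 6145 CPM and 207 CPM in Acomys, and to 5688 CPM and 12.7 CPM in Mus. Langerhans cell markers peaked there in Acomys only, at 3386 CPM, and T cell markers in neither library. These barcodes were not assigned to a cell type. In Acomys basal cells 9 of 10 macrophage markers were detected with 98 UMIs in all and Adgre1 at 0, and in Mus basal cells 9 of 10 with 308 UMIs and Adgre1 at 0. Over the 4 epithelial classes the sum was 3.88 to 11 CPM in Acomys and 12.2 to 16.04 CPM in Mus. The part of such RNA in the levels of cells was not tested.

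**Figure D4:**
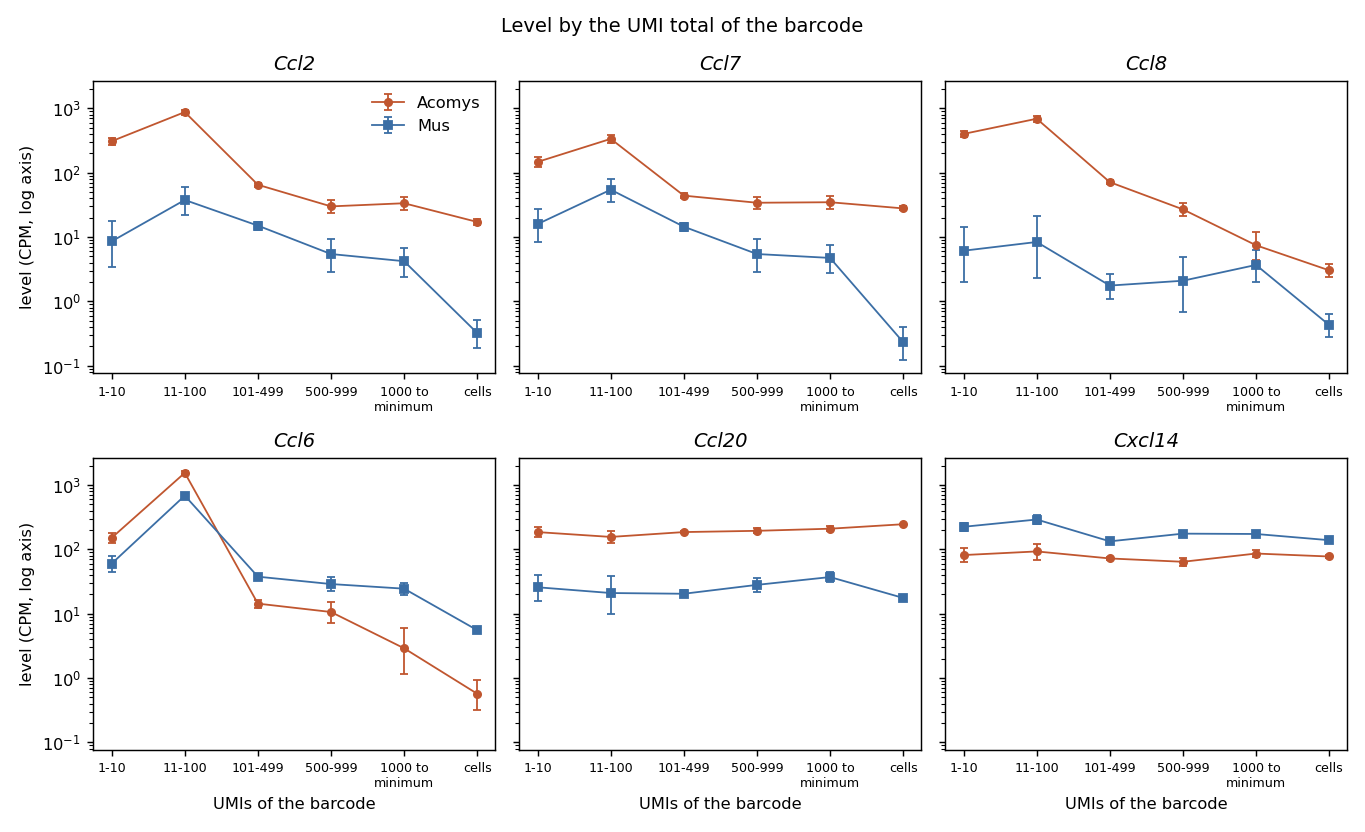
Level (CPM, log axis) of 6 chemokine genes in barcodes grouped by their UMI total, up to the cell minimum of each library, and in cells; Acomys circles, Mus squares, with exact 95% Poisson intervals. Ccl2, Ccl6, Ccl7 and Ccl8 peak at 11 to 100 UMIs in Acomys, at 337 to 1550 CPM, while Ccl20 in Acomys stays between 156 and 246 CPM from the lowest band to cells.

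Of 30 other chemokine ligands listed, 18 had a symbol in both gene lists and were compared. Cxcl1, Cxcl2 and Ccl27a were among the rest, and Ccl27a was among the leading genes of the unnamed Mus cluster 5 of 451 cells. Of the 18 compared, 4 reached 10 CPM in an epithelial class of either library. Cxcl17, a mucosal ligand, had 27.0 CPM in Acomys basal cells and 0.0395 CPM in Mus basal cells. Pf4, the platelet factor, had 18.1 CPM in Acomys basal cells and 0.632 CPM in Mus basal cells. Ccl1 had 17.1 CPM in Acomys follicle cells and no UMI in Mus follicle cells, and Ccl25 had no UMI in Acomys follicle cells and 10.98 CPM in Mus follicle cells.

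Of 22 receptors with a symbol in both lists, 2 reached 10 CPM in an epithelial class, and both are decoy receptors that take up chemokines without signalling through G proteins. Ackr4 had 35.6 CPM in Acomys basal cells and 40.4 CPM in Mus basal cells, and 80.0 CPM in Acomys follicle cells and 13.5 CPM in Mus follicle cells. Ackr3, which takes up Cxcl12, had 0.449 CPM in Acomys basal cells and 46.4 CPM in Mus basal cells. Ccr6, the receptor of Ccl20, Ccr2 and Cx3cr1 did not reach 10 CPM in any epithelial class. With a cell minimum of 1000 UMIs, Ccr2 (505 CPM) and Cxcr6, the receptor of Cxcl16 (434 CPM), were found in 49 Mus T cell-like cells, and Cx3cr1 (1503 CPM) in 23 Acomys cells led by Cd74.

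Of 9 sheddases and peptidases with a symbol, 7 were past 10 CPM in basal cells of either library, with 2 higher in Acomys by 2-fold or more and 3 lower, beside 14.8% and 37.3% of all symbols. Ctsb, a lysosomal protease, had 339 CPM in Acomys basal cells and 235 CPM in Mus basal cells. Mmp2, which cleaves several chemokines, had 3.59 CPM in Acomys basal cells and 118 CPM in Mus basal cells. Rhbdf1 had 63.2 CPM in Acomys and 45.2 CPM in Mus, and Rhbdf2, a partner of Adam17, had 16.7 CPM in Acomys and 6.60 CPM in Mus. Adam10 and Adam17, named as the sheddases of Cxcl16 and Cx3cl1 and not by their level, had 5.05 and 1.68 CPM in Acomys basal cells, against 20.3 and 28.9 CPM in Mus basal cells.

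Of 19 genes of the NF-kappaB and interleukin-17 response with a symbol, 13 were past 10 CPM in basal cells, with 2 higher in Acomys by 2-fold or more and 4 lower, beside 14.8% and 37.3% of all symbols. Nfkbia, the inhibitor of NF-kappaB, had 162 CPM in Acomys basal cells and 332 CPM in Mus basal cells. Tnfrsf1a, a receptor of tumour necrosis factor, had 86.9 CPM in Acomys and 196 CPM in Mus. Lcn2, an antimicrobial target of interleukin-17, had 24.6 CPM in Acomys basal cells and 3.24 CPM in Mus basal cells, but 3.14 CPM in Acomys suprabasal cells and 12.2 CPM in Mus suprabasal cells. Il17rc, a chain of the interleukin-17 receptor, had 72.9 CPM in Acomys basal cells and 99.7 CPM in Mus basal cells.

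Genes whose levels across clusters were most like those of a member are named here by Pearson's r of log2(CPM + 1), over 24 Acomys or 23 Mus clusters that share a library. For Ccl20 in Acomys they were Apoc2 (0.765), Il1r2 (0.757) and Nol3 (0.682), and in Mus Rem2 (0.631), Cwh43 (0.621) and A530084C06Rik (0.600). Il1r2 is a decoy receptor of interleukin-1. For Ccl2 in Acomys they were Eif2s3x (0.713), Uri1 (0.709) and Zfp711 (0.699), and for Ccl7 in Acomys Igfbp3 (0.730), Ccdc88c (0.706) and Cotl1 (0.698). Igfbp3 binds insulin-like growth factors.

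For Ccl6 in Mus the genes were Cd52 (0.892), Cd68 (0.859) and Il18 (0.850). Cd52 and Cd68 are known from leukocytes, and Cd68 is also one of the macrophage markers. For Cxcl12 in Mus they were Cygb (0.913), Rbpms (0.893) and Tgfb1i1 (0.887). For Cxcl14 they were Ptges (0.777), Lmo4 (0.709) and Castor1 (0.707) in Acomys and Ccdc3 (0.873), Serpinb10 (0.871) and Sertad4 (0.869) in Mus. Ptges makes prostaglandin E2. For Cxcl16 they were Csk (0.765), Cd3d (0.765) and Krt4 (0.756) in Acomys and Snx6 (0.874), Rnf39 (0.831) and Ammecr1 (0.819) in Mus. For Cx3cl1 they were Pdlim2 (0.797), Qsox2 (0.786) and Mib2 (0.769) in Acomys and Fam110b (0.850), Gtdc1 (0.842) and Mapk8ip1 (0.841) in Mus. No gene was named for the same member in both libraries.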

How the data were processed

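The authors deposited UMI counts for each gene in each barcode, not normalized. Per the submitters' processing notes they used Cell Ranger 2.2.0 and the mm10 build. The Acomys gene list holds other identifiers, and no source used states its build. No cell filter had been applied. Barcodes with at least 10% of the 99th percentile of the top 3000 barcodes and at least 200 genes were kept, which set the minimum at 2871 UMIs in Acomys and 4695 in Mus. Simulated doublets marked 183 Acomys and 386 Mus cells, which were removed, and 4 Mus cells over 20% mitochondrial counts were left out. Clusters (leidenalg 0.10.2, resolution 1, 30 components, scikit-learn 1.9.0) were made without chemokine and receptor genes and named where at least 3 markers were raised. A cluster stayed unnamed where, among its top 10 genes by fold, markers of a different type outnumbered its own, or where it was shallow and had no own marker there.

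Levels are CPM over 15709 symbols found in both lists, which hold 66.8% of the Acomys and 62.1% of the Mus UMIs in cells. The libraries hold 71042559 and 130039670 UMIs. Intervals are exact Poisson, Clopper-Pearson or conditional binomial intervals at 95% (scipy 1.17.1). With 1 library per species no test was made and samples were not pooled. All 9 members are named; from each other list up to 4 genes with at least 10 CPM and the highest level are named, and the 3 genes most like each member with at least 100 UMIs. The members and lists were chosen with earlier results of these data known. The steps were tested on simulated data. The alternatives tried changed the UMI minimum, doublet removal, mitochondrial limit, clustering, free RNA, scaling, level minimum and thinning.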

Additional observations from a re-analysis of the deposited data

Results flagged for a closer look

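In Acomys barcodes of 11 to 100 UMIs, which no comparison used, Ccl2 had 878 CPM, Ccl6 1550 CPM, Ccl7 337 CPM and Ccl8 692 CPM, above the 17.2, 0.571, 27.9 and 3.04 CPM of Acomys cells. In Mus barcodes of that size Ccl6 had 686 CPM and Ccl7 54.6 CPM, against 5.56 and 0.233 CPM in Mus cells. The suprabasal to basal ratio of Cxcl16 was 0.558 in Acomys and 1.17 in Mus, on opposite sides of 1, and with 1 library per species this difference was not tested.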

How the results depend on the processing

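No paired analysis was possible because each species has 1 library, and no replicate could be left out. There were 17 alternatives, not all of which applied to every count. Of 192 counts of members recomputed under them 173 stayed within 1.5 times the value reported and 19 moved. Of 528 ratios of members 447 stayed within their interval, 79 moved and 2 changed sign. Both sign changes were for Ccl2 with 10% of free RNA subtracted, which left no Ccl2 on either side of the ratio. The log2 values were 0.16 for suprabasal to basal cells of Acomys and -0.30 for Acomys to Mus follicle cells. They came from an equal small count added to each side over the UMI totals of the classes, and give no direction for Ccl2. The 10% was a set share, not a measured one, and the free RNA profile was that of barcodes of 1 to 10 UMIs. Of its level in that profile, Ccl8 had 0.251% in Acomys basal and 0.255% in Acomys follicle cells. Ccl6 had 0.249% in Acomys suprabasal cells. Ccl2 had 9.21% in Acomys basal, 3.94% in suprabasal, 6.96% in follicle and 3.935% in sebocyte-like cells. Subtracting 10% thus took away more of Ccl8, Ccl6 and Ccl2 than these cells held. The share of free RNA in the Ccl2 level was not tested. Of 144 shares of cells set beside another thinning depth or none, 83 moved, so shares depend on depth. Counts and ratios of follicle or sebocyte-like over basal cells within a library were not recomputed under the alternatives.

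Of the counts that moved, the members higher in suprabasal than in basal cells of Acomys were 0 with a minimum of 1000 UMIs and 2 with a level minimum of 3 CPM or none, and those of Mus were 0 with a minimum of 500 UMIs, with 10% of free RNA subtracted and with CPM over all genes. The members lower in suprabasal cells of Mus were 2 with a minimum of 1000 UMIs, with resolution 0.5 and without a level minimum. The members lower in Acomys than in Mus basal cells were 0 with a minimum of 1000 UMIs, with resolution 2 and with unnamed clusters counted in, and 3 without a level minimum. The members lower in Acomys suprabasal cells were 0 with a minimum of 500 UMIs and with free RNA subtracted, and 2 without a level minimum. In follicle cells the members higher in Acomys were 2 with a minimum of 500 UMIs and with free RNA subtracted, and those lower were 1 with a minimum of 500 UMIs. Leaving out the cell with most UMIs of a member was chosen after the values were seen. Centring on genes of at least 50 CPM shifted follicle log2 ratios by 0.125. The cause of these moves was not tested. In Acomys basal cells a member with no UMI could hold up to 0.180% of cells, and in Mus sebocyte-like cells up to 1.35%, which limits what absence shows.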

Other observations

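With the cell minimum lowered to 1000 UMIs, levels outside the epithelium moved. Mus fibroblast-like cells, 37 at that minimum, had 847 CPM of Cxcl12, 960 CPM of Cxcl14, 201 CPM of Ccl8 and 96.0 CPM of Ccl7. The 58 fibroblast-like cells of the higher minimum had 143 CPM of Cxcl12, 274 CPM of Cxcl14, 35.0 CPM of Ccl8 and 11.7 CPM of Ccl7, so the order of Cxcl12 between fibroblast-like and endothelium-like cells depended on the minimum. Mus T cell-like cells had 949 CPM of Ccl6, found in 14 of 49 cells. Acomys blood endothelium-like cells, 396 at that minimum, had 159 CPM of Cxcl12, 281 CPM of Cxcl16, 43.7 CPM of Ccl7 and 47.2 CPM of Cx3cl1, and Mus blood endothelium-like cells, 148 in number, had 206 CPM of Cxcl12. Ackr1, a decoy receptor of venules, had 2506 CPM in a cluster of 288 of the Acomys blood endothelium-like cells and 1729 CPM in the 148 Mus ones.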
